A study of Mus musculus with 4 samples.

Results

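The chemokines and chemokine receptors of the mouse were followed in NIH3T3, a fibroblast line from mouse embryos, carrying wild-type EGFR in one group and a deletion mutant of the receptor in the other. The members were chosen by the gene name on the array (names beginning with Ccl, Cxcl, Ccr or Cxcr and a digit, names beginning with Cx3c, and Xcl1), which gave 54 genes with 71 probes out of 34816 gene names or unnamed probes. They comprised 20 CC ligands, 13 CXC ligands, 2 ligands of the CX3C and XC types and 19 receptors. Of these, 16 genes had a signal well above background on each array of 1 group or of both and entered the comparison, while 38 did not. EGFR is a receptor tyrosine kinase that signals through RAS and ERK. How much of it was deleted, and from which species it came, is not in the labels, and a mouse Egfr probe therefore does not check them. Both groups were the same cell line at steady state with no treatment, and each was measured on 2 one-colour Agilent arrays after Cy3 labelling of total RNA. The labels speak of separate cDNA preparations and do not mention separate cultures, so the p-values reflect no more than array-to-array spread, possibly technical.

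Chemokines are small secreted proteins that bind heparan sulfate on cells and matrix and guide migrating cells along a gradient. The spacing of the first cysteines divides them into CC, CXC, CX3C and XC types, and most act through receptors coupled to inhibitory G proteins. CC ligands such as Ccl2 mainly attract monocytes, CXC ligands such as Cxcl1 and Cxcl5 attract neutrophils, and Cxcl9, Cxcl10 and Cxcl11 are induced by interferon and attract T cells. Fibroblasts make several of them, and Ccl2 and Cxcl1 were first isolated under other names as genes that growth factors induce in 3T3 cells.

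The 4 arrays shared 1 slide, each group in its own column, and column and group therefore cannot be told apart. Between 42.9% and 46.9% of the probes on an array had a signal well above background, no spot was saturated, and over probes, the upper quartile of processed signal ran from 327 to 366.6 intensity units. Levels are given below as log2 of the signal minus that of the array's own 75th percentile, so a level of 0 is the 75th percentile and 1 unit is a doubling. Levels of different probes are not comparable. Fibroblast markers were present, with 9 of 10 well above background. Of these, 7 fell in deletion-mutant cells and 1 rose at an adjusted p under 0.05 by limma (88.9% called, against 58.8% of all features). Of 13 leukocyte markers, 6 passed the same filter, 0 rose and 2 fell (33.3% called). Itgam and Fcer1g fell, while Csf1r, Cd68, Cd3e and Cd79a did not pass the threshold. All of these except Cd79a were well above background on all 4 arrays. The pan-leukocyte gene Ptprc and the myeloid genes Emr1, Lyz2 and Tyrobp were not well above background. The summed signal of the 6, in multiples of the 75th percentile, was 37.6 and 39.7 on the wild-type arrays and 22.5 on each deletion-mutant array. Most of that sum was Itgam, an integrin subunit of myeloid cells, which fell from 33.02 and 35.45 to 18.17 and 18.12, while the other 5 summed to between 4.27 and 4.6 on the 4 arrays. Since levels of different probes are not comparable, the sum gives no share of transcripts. The part of the leukocyte markers in the results below was not tested.

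The comparison asked which chemokine transcripts differ between the cells with the deletion mutant and those with the wild-type receptor. The 3 detected CC ligands of the Ccl2 group were higher in deletion-mutant cells, and 4 of the 5 detected CXC ligands were lower, a count that fell to 2 without wild-type array 2, with no background filter and with a filter on all arrays. Ccl2 rose 6.92-fold and its neighbours Ccl7 and Ccl8 rose 2.43-fold and 2.38-fold. Over the whole CC class, 4 of the 8 ligands tested rose, 2 (Ccl9 and Ccl27a) fell and 2 did not pass. Cxcl5 fell 4-fold, Cxcl12 fell 3.97-fold, and Cxcl10, Cxcl1 and the CX3C ligand Cx3cl1 also fell, by factors between 2 and 2.3. In all, 13 of the 16 genes passed an adjusted p of 0.05 by limma, 5 upward and 8 downward. Among all 18093 features tested, 58.8% passed, 34.6% upward and 24.2% downward. Among these, 3 members rose and 6 fell by 2-fold or more, against 5.94% and 7.46% of all features. The median change was -0.76 (log2) over the 16 genes and 0.066 over all features. The arrays of the groups did not overlap for 15 of the 16 genes, as for 81.7% of all features. Cxcl5, Cxcl1, Ccl17 and Cxcr6 entered the comparison through the wild-type arrays alone, which favours a lower value in the deletion-mutant cells, so the counts over the 16 genes are a description. In RNA from whole cultures, fewer cells that make a transcript and less of it per cell cannot be told apart.

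**Figure D1:**
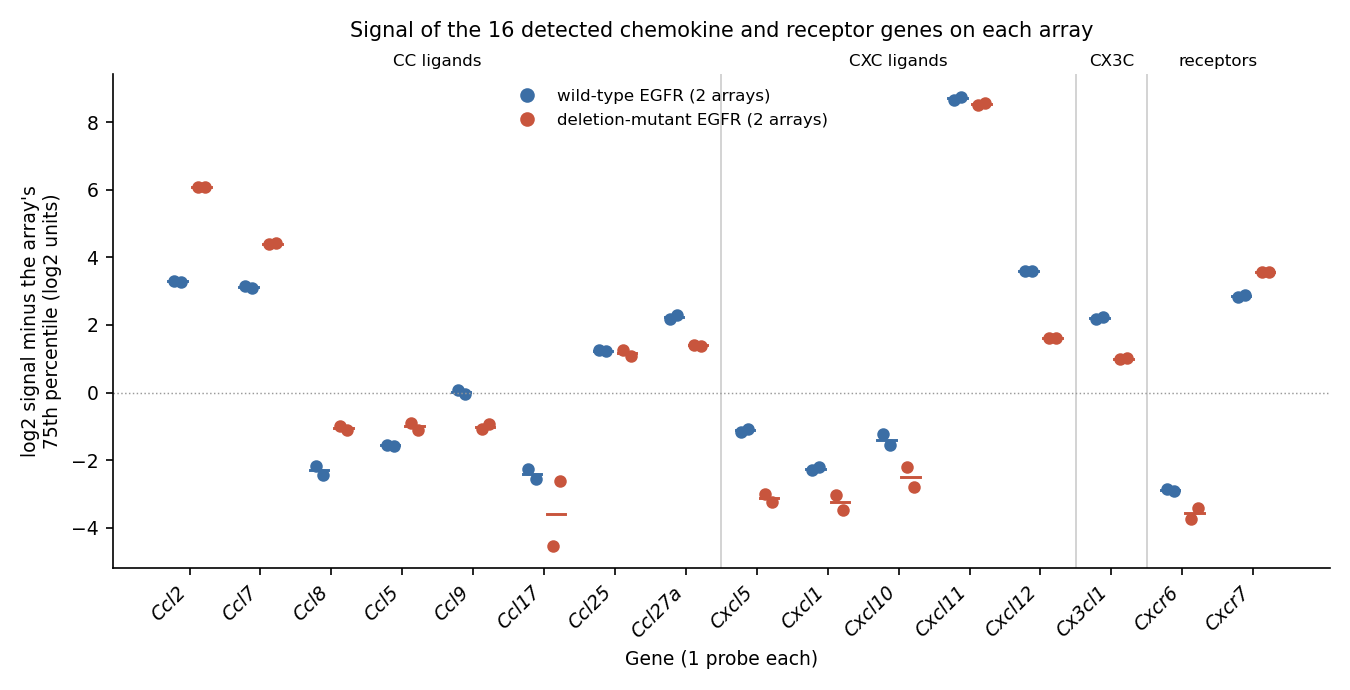
Signal of each of the 16 detected genes on each of the 4 arrays, in log2 units relative to the array's 75th percentile; points are arrays and short lines are group means of 2 arrays. Ccl2, Ccl7, Ccl8, Ccl5 and Cxcr7 are higher on both deletion-mutant arrays, Ccl25 overlaps between the groups, and Ccl17 has 1 deletion-mutant array far below the other.

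Among the CC ligands, 4 of the 8 tested rose, 2 fell and 2 did not pass (75% passed, against 58.8% of all features). Ccl2, the main attractant of monocytes, had levels of 3.30 and 3.28 on the wild-type arrays and of 6.07 and 6.09 on the deletion-mutant arrays. Each array carried 10 spots of its probe, whose SD lay between 0.043 and 0.09 within an array, and the lowest of the deletion-mutant spots, at 5.94, lay above the highest of the wild-type spots, at 3.437. The log2 fold change was 2.79 ± 0.055 (SE, n = 2 arrays in each group; adjusted p = 0.000146 by limma), and 1.51% of all features had a larger change in either direction. The Ccl2 probe lies on chromosome 11 at 81850650 to 81850709 (mm9).

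Ccl7, which attracts monocytes and other leukocytes, had levels of 3.14 and 3.10 in wild-type cells and of 4.39 and 4.42 in deletion-mutant cells (log2 fold change 1.28 ± 0.057 SE, adjusted p = 0.000481). Ccl8, a further attractant of the same family, had signals of -2.17 and -2.43 against -0.999 and -1.11 (1.25 ± 0.111, adjusted p = 0.00177), and its change was 0.77 with normexp correction (1.3e-05). Both genes were higher on each deletion-mutant array than on either wild-type array. Ccl5, which attracts T cells and monocytes, had -1.54 and -1.59 in wild-type and -0.89 and -1.12 in deletion-mutant cells. It rose 1.47-fold (0.56 ± 0.099, adjusted p = 0.0105), but did not pass without wild-type array 1 (adjusted p = 0.0543), without wild-type array 2 (0.0627) or with no background filter (0.0654). Scaled to the 75th percentile of probes well above background on all arrays, its change was 0.37 (0.0343).

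Of the CC ligands that were lower, Ccl9, which acts through Ccr1, had levels of 0.084 and -0.038 in wild-type and of -1.08 and -0.94 in deletion-mutant cells. It fell 2.04-fold (-1.03 ± 0.084, adjusted p = 0.00147), in the direction opposite to that of Ccl5, whose probe is its nearest CC ligand on one side. Ccl27a, known as a skin chemokine, had 2.17 and 2.29 against 1.42 and 1.39 with its brightest probe (-0.83 ± 0.070, adjusted p = 0.00158). The mouse genome holds near-identical copies of Ccl27a, so its probes may report several genes and the value is uncertain. As the mean of its probes the change was -0.48 (adjusted p = 0.0103). Ccl25, a ligand of Ccr9, had 1.24 and 1.22 against 1.26 and 1.07, which overlapped (-0.067 ± 0.086, adjusted p = 0.538). Ccl17, a ligand of Ccr4, had -2.26 and -2.56 in wild-type cells and -4.53 and -2.63 in deletion-mutant cells, of which the lower was not well above background. Its difference of -1.17 ± 0.669 did not pass (adjusted p = 0.2), and it depended on the deletion-mutant arrays, at -2.12 without array 2 (adjusted p = 0.00211) and -0.22 without array 1 (0.293). With normexp background correction it was -0.37 and passed (0.0421).

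**Figure D2:**
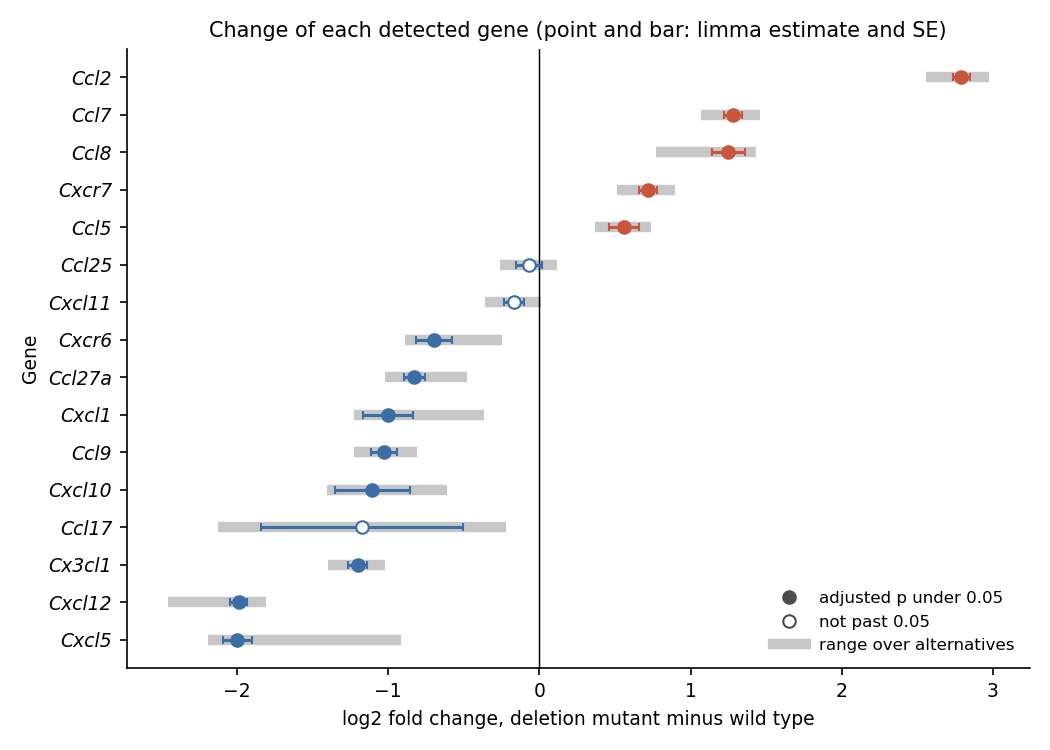
Log2 fold change, deletion mutant minus wild type, of the 16 detected genes with its SE by limma (2 arrays per group); filled points passed an adjusted p of 0.05, and grey bars span the values under the alternative settings. Ccl2 stands at 2.79, Cxcl5 and Cxcl12 stand near -2, and only the bars of Ccl25 and Cxcl11 reach across 0.

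None of the 5 CXC ligands tested rose by limma, 4 fell and 1 did not pass (80% passed, against 58.8% of all features). Of all features, 24.2% fell. Cxcl5 and Cxcl1 entered through the wild-type arrays alone, which favours a fall. Cxcl12, which retains and attracts cells that carry Cxcr4 and is typical of stromal fibroblasts, had levels of 3.59 and 3.60 on the wild-type arrays and of 1.60 on each deletion-mutant array. The change was -1.99 ± 0.054 (adjusted p = 0.000224), and 3.47% of all features had a larger change. Cxcl5, a neutrophil attractant, had -1.16 and -1.08 in wild-type and -3.01 and -3.23 in deletion-mutant cells. It fell by 1.998 ± 0.098 (log2, adjusted p = 0.000561). Only 1 of its 2 deletion-mutant arrays was well above background, so the size of the fall rests on a signal close to the limit. With normexp background correction it was -0.91 (adjusted p = 6e-06).

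Cxcl1, the other neutrophil attractant that was detected, had -2.30 and -2.20 against -3.03 and -3.48, and here too 1 of 2 deletion-mutant arrays was well above background. It fell by 1.002 ± 0.167 (adjusted p = 0.00889), which did not pass without wild-type array 2 (adjusted p = 0.0572) or with no background filter (0.0527), and was -0.37 with normexp correction (0.0119). The interferon-induced Cxcl10 had -1.22 and -1.57 in wild-type and -2.20 and -2.80 in deletion-mutant cells. It fell by 1.105 ± 0.246 (adjusted p = 0.0203), was -0.61 with normexp correction (0.00135), and did not pass without wild-type array 1 (adjusted p = 0.0999), without wild-type array 2 (0.0556) or with no background filter (0.0898). Without wild-type array 2, only 2 of the 4 CXC ligands, Cxcl5 and Cxcl12, still passed. Cxcl11, of the same interferon-induced group, had 8.65 and 8.76 against 8.50 and 8.57, a difference of -0.17 ± 0.068 that did not pass (adjusted p = 0.1). It passed under 2 alternatives, at -0.36 with the 75th percentile of probes well above background on all arrays (adjusted p = 0.0114) and with robust variances (0.0172).

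Cx3cl1 (fractalkine), a membrane-bound chemokine that is shed by proteases, had 2.16 and 2.25 in wild-type and 0.98 and 1.03 in deletion-mutant cells. The arrays did not overlap, and the fall was 2.30-fold (-1.20 ± 0.063, adjusted p = 0.000623). Its probe on chromosome 8 (97306185 to 97306244, mm9) lies between those of Ccl22, which was not detected on any array, and Ccl17, which did not pass. The XC ligand Xcl1 was not well above background on any array.

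On chromosome 11 the probes of Ccl2, Ccl7, Ccl11, Ccl12, Ccl8 and Ccl1 span 139.8 kb. The 3 detected genes there all rose, while Ccl11, Ccl12 and Ccl1, which lie between and beside them, were not well above background on any array. A second stretch of 138.8 kb begins 1488.6 kb from the Ccl2 probe and holds Ccl5, Ccl9, Ccl6, Ccl3 and Ccl4, of which Ccl5 rose, Ccl9 fell and the other 3 were not detected. On chromosome 5 the probes of Cxcl5, Cxcl3, Cxcl15, Cxcl1 and Cxcl2 span 144 kb, and the 2 detected genes, Cxcl5 and Cxcl1, both fell. Both had entered through the wild-type arrays alone, which favours a fall, and neither is tested with a filter on all arrays. Cxcl9, Cxcl10 and Cxcl11 lie within 35.8 kb, and there Cxcl10 fell, Cxcl11 did not pass and Cxcl9 was not detected. Counted over each chromosome, 4 of the 5 CC ligands tested on chromosome 11 rose and 1 fell by limma. On chromosome 5, 0 of the 4 CXC ligands tested rose and 3 fell. Of all features, 34.6% rose and 24.2% fell. The calls of Ccl5, Cxcl1 and Cxcl10 did not hold under every alternative. The difference between the clusters was not tested, since neighbouring genes are not replicates.

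**Figure D3:**
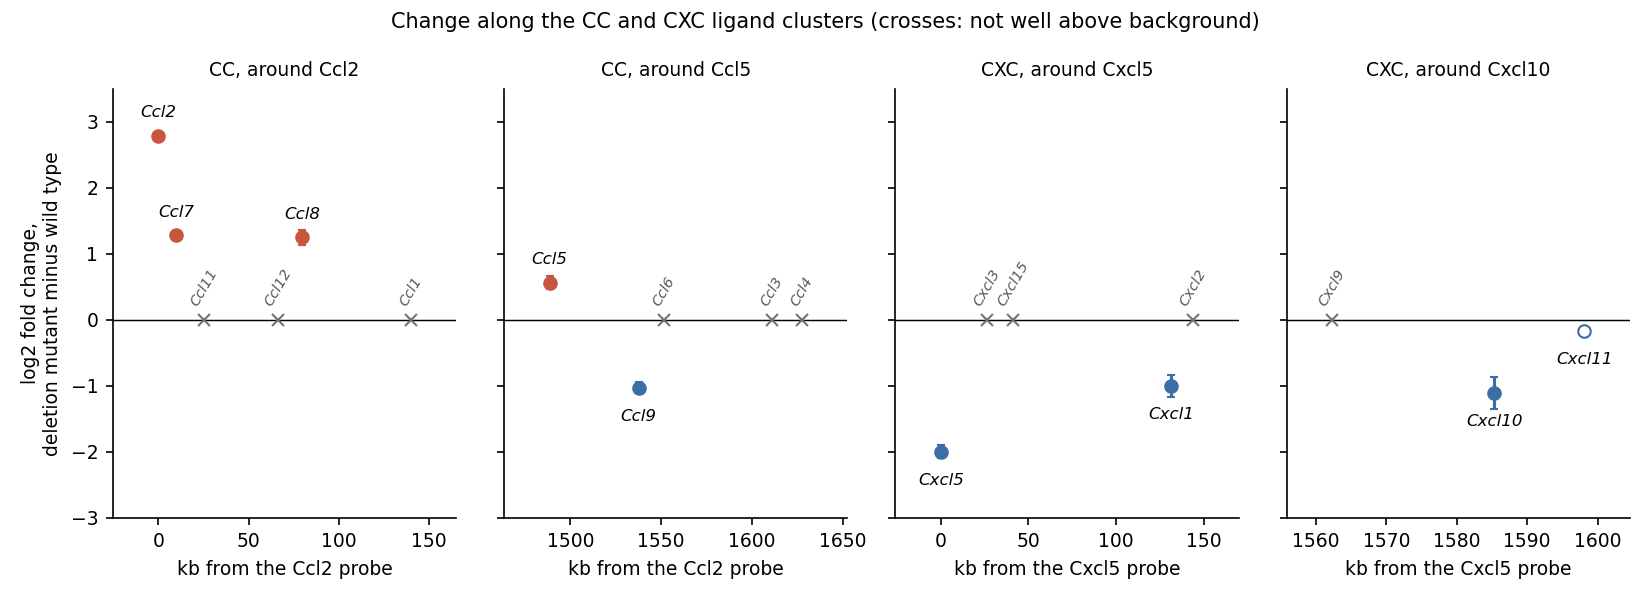
Log2 fold change (deletion mutant minus wild type, with SE) of the ligands along the CC cluster and the CXC cluster, against the distance in kb from the Ccl2 or the Cxcl5 probe. Crosses at 0 mark genes that were not well above background and have no value; the 3 points around Ccl2 lie above 0 and the 2 around Cxcl5 below it.

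Promoters of 11 of the 16 tested genes were held by the RefSeq table used here (GRCm38.p6), each from 250 bases before to 50 bases after a start of transcription. Ccl2, Ccl5, Ccl7, Cxcl5 and Cxcl11 had no promoter in it. The promoters are reference sequences and were not read from NIH3T3 cells. Those shown are of Ccl8, which rose with its neighbour Ccl2, of Cxcl1, Cxcl10 and Cxcl12, which fell, and of Cxcr7. They are printed 5′ to 3′ on the strand of the gene, with capitals where any of the 5 motifs searched matched.
Ccl8, chr11:82114935-82115234, plus strand: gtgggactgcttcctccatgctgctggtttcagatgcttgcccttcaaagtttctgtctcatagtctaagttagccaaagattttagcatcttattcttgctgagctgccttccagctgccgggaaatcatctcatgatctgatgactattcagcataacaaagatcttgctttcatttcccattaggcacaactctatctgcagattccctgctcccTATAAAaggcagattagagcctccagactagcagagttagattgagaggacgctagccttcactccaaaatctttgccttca
Cxcl1, chr5:90890995-90891294, plus strand: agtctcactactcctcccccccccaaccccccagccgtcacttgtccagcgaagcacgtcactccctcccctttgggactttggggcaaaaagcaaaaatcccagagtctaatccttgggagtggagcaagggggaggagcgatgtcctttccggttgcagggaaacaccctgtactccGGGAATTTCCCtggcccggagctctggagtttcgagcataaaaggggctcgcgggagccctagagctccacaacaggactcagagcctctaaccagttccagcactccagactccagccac
Cxcl10, chr5:92348840-92349139, minus strand: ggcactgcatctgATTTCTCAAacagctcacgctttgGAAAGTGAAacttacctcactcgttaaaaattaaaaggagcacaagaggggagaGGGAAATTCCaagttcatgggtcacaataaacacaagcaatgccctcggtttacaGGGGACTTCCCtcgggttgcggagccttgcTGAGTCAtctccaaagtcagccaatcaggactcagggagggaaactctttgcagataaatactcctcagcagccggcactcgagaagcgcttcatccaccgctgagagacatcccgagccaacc
Cxcl12, chr6:117168285-117168584, plus strand: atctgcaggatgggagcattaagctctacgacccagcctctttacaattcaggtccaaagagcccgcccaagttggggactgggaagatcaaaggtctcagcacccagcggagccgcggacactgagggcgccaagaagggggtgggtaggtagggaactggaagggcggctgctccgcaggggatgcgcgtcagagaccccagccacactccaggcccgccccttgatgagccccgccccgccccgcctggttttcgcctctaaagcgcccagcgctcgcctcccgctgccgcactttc
Cxcr7, chr1:90203730-90204029, plus strand: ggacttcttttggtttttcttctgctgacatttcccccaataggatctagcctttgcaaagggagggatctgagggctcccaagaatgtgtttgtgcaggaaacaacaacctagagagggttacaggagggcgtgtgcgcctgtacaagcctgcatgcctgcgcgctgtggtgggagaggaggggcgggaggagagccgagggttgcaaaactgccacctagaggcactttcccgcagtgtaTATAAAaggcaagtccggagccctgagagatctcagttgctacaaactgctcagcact

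The motifs were the AP-1 site TGANTCA, the TATA box TATAAA, a core of the interferon-stimulated response element GAAANNGAA, a C/EBP core TTNNGNAAT and the kappaB consensus of NF-kB, each on both strands. In Cxcl1 the capitals mark overlapping kappaB matches that begin 71 and 70 bases upstream of the start. In Cxcl10 they mark kappaB matches that begin 159, 104 and 103 bases upstream (the last pair overlap), an AP-1 match 74 bases upstream, an interferon element 213 bases upstream and a C/EBP core 237 bases upstream. Ccl8 held a TATA match that begins 32 bases upstream, and Cxcr7 held a TATA match that begins 8 bases upstream. Neither held another motif of the 5, and the Cxcl12 window held none. The kappaB consensus occurred in 11 of 43 promoters of the family (25.6%) and in 8.46% of all 32851 promoters of the table. The AP-1 site occurred in 18.6% of the family's promoters and 7.81% of all, the TATA box in 27.9% and 13.6%, the interferon element in 18.6% and 8.56%, and the C/EBP core in 16.3% and 11.5%. Among tested genes whose promoters are not shown, Cx3cl1 held only a TATA match and Ccl9 held TATA, AP-1 and kappaB matches, and both fell. A Ccl27a promoter held AP-1, kappaB and C/EBP matches, and a Ccl25 promoter held a TATA match. Cxcr6 and Ccl17 held none. Motifs were not compared between genes that rose and genes that fell. A match is a run of letters and not a site shown to be bound.

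Several probes reported on 4 of the genes. The Cxcl12 probe on chromosome 6 at 117131227 to 117131286 (mm9) fell by 1.99 (log2), and a probe upstream of it at 117125026 to 117125085, assigned to another RefSeq transcript, fell by 2.93. The second had levels of 2.21 and 2.24 in wild-type and of -0.63 and -0.77 in deletion-mutant cells, a 7.60-fold fall (adjusted p = 0.000339 by limma over all probes). The difference between the probes within an array was 1.37 and 1.36 on the wild-type arrays and 2.23 and 2.37 on the deletion-mutant arrays. These did not overlap, but an exact permutation test of 2 arrays against 2 cannot go below a two-sided p of 0.333, which is the value it gave.

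The Cxcl11 probes changed alike, by -0.17 and -0.21, although the brighter stood 5.22 above the dimmer in wild-type and 5.26 in deletion-mutant cells (means of 2 arrays). A pair of overlapping Ccl27a probes fell by 0.83 and 0.81, whereas the remaining probe, which did not overlap them, had a difference of 0.20 that did not pass (adjusted p = 0.184 by limma over all probes). The detected Ccl25 probes had differences of -0.067 and -0.030, neither of which passed. Cxcr6 had overlapping probes as well, of which 1 was detected and the other was not.

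**Figure D4:**
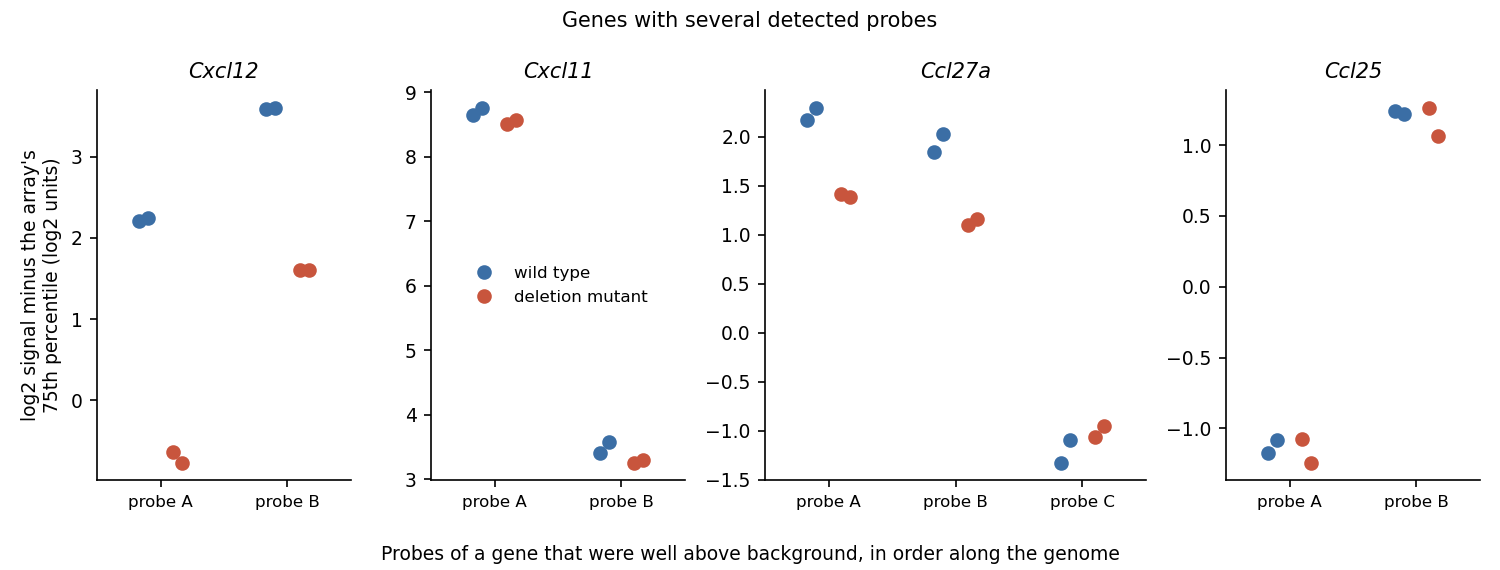
Signal on each array (log2 units relative to the array's 75th percentile) of every detected probe of Cxcl12, Cxcl11, Ccl27a and Ccl25, with probes in order along the genome and a scale of its own for each gene. Both Cxcl12 probes are lower on the deletion-mutant arrays, the left by 2.93 and the right by 1.99, and 2 of the 3 Ccl27a probes are lower.

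Receptors were mostly not detected: 2 of 19 passed the filter. Cxcr7, now named Ackr3, takes up Cxcl12 and Cxcl11 without coupling to G proteins. Its levels were 2.82 and 2.88 in wild-type and 3.58 and 3.56 in deletion-mutant cells, a 1.64-fold rise (0.72 ± 0.057, adjusted p = 0.00142). It thus rose where its ligand Cxcl12 fell. Cxcr6, the receptor of the membrane-bound Cxcl16, had -2.85 and -2.91 in wild-type cells, and its -3.73 and -3.43 in deletion-mutant cells were not well above background. It was at least 1.44-fold lower there (adjusted p = 0.00969), a bound that holds for this scaling and background only. The change was -0.25 (log2) with normexp correction and -0.52 with quantile, median or the authors' scaling. It did not pass without wild-type array 1 (0.0605), without wild-type array 2 (0.0506) or with no background filter (0.0588). For the bound each dim array took its own signal or the lowest signal well above background on it, whichever was higher.

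The ligands detected in these cells had no signalling receptor that passed the same filter. Ccr8, the receptor of Ccl8, was well above background on 1 wild-type array only. Of 14 ligands tested, 0 had a textbook G protein-coupled receptor that was well above background on both arrays of a group. Cxcr4, the receptor through which Cxcl12 signals, lay between -5.85 and -5.43 over the 4 arrays. Ccr2, the receptor of Ccl2 and a receptor of Ccl7, lay between -5.69 and -4.43. Cxcr2, the receptor of Cxcl1 and Cxcl5, lay between -5.62 and -5.22. Ccr3, a further receptor of Ccl7, lay between -4.83 and -3.32 and was well above background on no array. The lowest signal well above background lay between -3.73 and -3.30 on the 4 arrays, so Cxcr4, Ccr2 and Cxcr2 were not detectable at this sensitivity. The highest signal of Ccr3 lay within that range.

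The 38 members that were not tested were well above background on no array in 36 cases. Ccr8 reached that level on 1 array, a wild-type one, and Ccl19 on 2 arrays, 1 of each group. The other ligands were Ccl1, Ccl3, Ccl4, Ccl6, Ccl11, Ccl12, Ccl20, Ccl22, Ccl24, Ccl26, Ccl28, Cxcl2, Cxcl3, Cxcl9, Cxcl13, Cxcl14, Cxcl15, Cxcl16, Cxcl17 and Xcl1. The other receptors included Ccr1, Ccr1l1, Ccr2, Ccr3, Ccr4, Ccr6, Ccr7, Ccr9, Ccr10, Cxcr1, Cxcr2, Cxcr3, Cxcr4, Cxcr5 and Cx3cr1.

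Of 37 listed genes of the NF-kB, AP-1, STAT and cytokine pathways, 30 were tested, of which 11 rose, 3 fell and 16 did not pass, so 46.7% passed against 58.8% of all features. Among the genes that passed, the AP-1 subunits Fosl1 (2.90 ± 0.057, log2) and Jun (1.74 ± 0.077) had the largest rises. The transcription factor Stat3 (-1.78 ± 0.055) and the NF-kB cofactor Bcl3 (-0.50 ± 0.081) had the largest falls among them. For these genes the adjusted p lay between 0.000146 and 0.00792 by limma. Zfp36, also on the list, had a larger difference than Bcl3 but did not pass (-0.77 ± 0.464, adjusted p = 0.223). The inflammatory cytokines Il1a, Il1b and Tnf were not well above background on both arrays of either group. The median of the list was 0.16, against 0.066 for all features.

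Genes that bind chemokines or act as such under other names had 6 of 15 members tested, of which 4 rose and 2 fell (100% passed, against 58.8% of all features). Cd44, a hyaluronan receptor, rose by 1.35 ± 0.058 (log2, adjusted p = 0.000444) and the cytokine Mif by 0.84 ± 0.065 (0.00134). Rarres2 (chemerin) was at least 1.51-fold lower (0.00111) and Cd74, a receptor of Mif, at least 1.07-fold lower (0.0434), neither being well above background in deletion-mutant cells. In the list of signal transduction by chemokine receptors, 17 of 27 were tested, of which 9 rose, 2 fell and 6 did not pass (64.7% passed, against 58.8% of all features). Its largest changes were those of Rgs16 (4.69 ± 0.064, log2) and Rgs2 (-1.33 ± 0.062), which shorten G protein signalling, of Pik3r5 (1.29 ± 0.139), a subunit of a PI3 kinase, and of the receptor kinase Adrbk1 (0.70 ± 0.067).

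Proteases that cut or shed chemokines had 8 of 18 members tested, with 1 higher, 4 lower and 3 not past the threshold, and the 62.5% that passed is near the 58.8% of all features. Cathepsin L, Ctsl, rose by 1.31 ± 0.055, while the matrix proteases Mmp2 (-1.05 ± 0.080) and Mmp14 (-0.97 ± 0.061) and the aminopeptidase Anpep (-0.62 ± 0.065) fell (log2, adjusted p between 0.000435 and 0.00253 by limma). The sheddases of Cx3cl1, Adam10 and Adam17, had differences of -0.12 and -0.093 that did not pass (adjusted p = 0.19 and 0.318). Dpp4, which trims the end of Cxcl12 and other chemokines, was not detected.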

How the data were processed

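RNA of 4 samples was measured on 1-colour Agilent arrays. The arrays were read with Feature Extraction 10.10.1.1 and probe coordinates are on mm9, per the file headers. The deposited files give each spot's processed signal as intensity on a linear scale, background-subtracted and detrended, besides raw intensity and flags of 0 or 1. The authors also deposited log2 values, which differed from the log2 processed signal by 1 constant per array and had a median of 4.4367 on each array.

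Control spots and outlier spots were left out, replicate spots were averaged on the log2 scale, and each array's 75th percentile was subtracted. A probe was kept if well above background on both arrays of a group, and a gene was represented by its brightest kept probe. Groups were compared by limma 3.58.1 (R 4.3.3) over 18093 features with Benjamini-Hochberg adjustment; residual degrees of freedom were 2. The fit was tested on simulated data. Gene names are those of the array; all 54 members matched a current RefSeq symbol and 1 had been renamed. Exon or untranslated positions of probes were not analysed here.

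Members and lists were chosen with earlier results of these data known. Members were named, except for an item that is not reported here, and of each pathway list the 4 largest changes or, with 3 passing each way, 2 per direction; other names were chosen after their values were seen. Alternatives were normexp correction (offset 50), quantile, median and detected-probe scaling, the authors' values, other filters, robust variances, other probe rules, a block for the replicate number and fits without each array in turn. Figures were drawn with matplotlib 3.10.9.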

Additional observations from a re-analysis of the deposited data

How the results depend on the processing

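Over 15 alternatives, the 13 members that passed kept their direction, and 9 of them passed under each alternative that could be fitted to them; Ccl5, Cxcl1, Cxcl10 and Cxcr6 lost the call under 2 or 3 alternatives, as given above. The count of lower members was 8, and 5 with no background filter, 5 with a filter on all arrays, where 12 members were tested, and 5 to 9 when an array was left out; the count of higher members was 4 to 5. Lower CXC ligands numbered 4, and 2 with no background filter, 2 with the filter on all arrays and 2 to 4 when an array was left out. With no background filter 3741 features were higher and 2725 lower. That fit also had 5 higher members, but 3 higher CC ligands in place of 4. Ccl5 was lost there (adjusted p = 0.0654 by limma), and a member that the main filter had left out was counted. With the 75th percentile of probes well above background on all arrays 6727 were lower. The higher share of the called features was 58.9%, and 73.5% under median scaling, 51.1% under quantile normalization and 38.9% under the percentile of detected probes, while the members divided 5 to 8 under median and quantile scaling and 5 to 9 under the percentile of detected probes. Under these scalings the all-feature median shifted by between -0.19 and 0.18 (log2). Of the members that did not pass, Ccl25 changed sign under median scaling (0.11), the authors' values (0.11) and without deletion-mutant array 2 (0.029). Without deletion-mutant array 1, Ccl25 was at -0.16. Cxcl11 changed sign under median scaling (0.012) and the authors' values (0.013). Median scaling and the authors' values each move every feature by the same amount, and moved the all-feature median by 0.18 (log2). The cause of the sign change without deletion-mutant array 2 was not tested. With the replicate block, which here is also the row on the slide, 5 members were higher and 8 lower, and 5872 and 4118 features; same-numbered arrays shared only a number, and their deviations correlated at 0.047 over features. A fit without 1 array takes the spread of the lone array's group from the other group. Signals near background, such as those of Cxcl1, Cxcl5, Ccl17 and Cxcr6 in deletion-mutant cells, limit the size of their falls.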
